A study of Rattus norvegicus with 4 samples.

Results

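Genes of motile cilia and of the axoneme, the microtubule core of a cilium, were followed in rat brain after intracerebral hemorrhage, a bleed into the brain tissue. They were chosen by name. Taken was every row of the expression table whose symbol begins with Dnah, Dnai, Dnaaf, Rsph, Cfap, Tekt, Drc or Ift. Symbols of Dnal followed by a digit were taken too, together with Spag6, Spag16, Spag17, Hydin, Ak7 and Mcidas. Dnali1 fell outside for lack of that digit and is counted among the further motile cilia genes below. Foxj1 also belongs to the rule but was not analysed here. The rule took 66 of 17853 rows, which carry 64 symbols, because Cfap46 and Rsph4a each name 2 rows, and the values of those 2 symbols are therefore uncertain. Ratios were formed where the 4 libraries averaged 1 RPKM or more, which held for 41 of the 66 rows and for 12160 of all rows. No measured value entered the rule.

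Polyadenylated RNA was sequenced in 4 libraries: ipsilateral brain at 21 months, contralateral brain at 21 months, ipsilateral brain at 13 months and contralateral brain at 13 months. All 4 came from rats with intracerebral hemorrhage, so the contralateral side is the opposite side of an injured brain and not brain without a bleed. The titles mark both ipsilateral libraries with L and both contralateral libraries with R. If these letters mean left and right, the bleeding side cannot be told apart from the left side at either age. RNA of 9 rat brains was pooled in equal amounts, without a statement of whether 9 went into each library, which leaves 1 library per group, no spread between animals and no test of any single ratio. The strain, the way the bleed was made, the time between bleed and sampling and the brain region taken are not stated in the labels. Expression is in RPKM, read counts scaled for gene length and sequencing depth, and the number of reads behind a value is unknown.

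A motile cilium beats because dynein arms walk along the outer doublet microtubules of its axoneme, while radial spokes, the nexin-dynein regulatory complex and a central pair of microtubules shape the stroke. Intraflagellar transport carries parts into and out of the cilium on trains of IFT proteins, and it serves the non-motile primary cilia of neurons and glia as well. In the brain, beating cilia are carried by the ependymal cells that line the ventricles, where they move cerebrospinal fluid, and the choroid plexus epithelium is ciliated too. In bulk tissue, fewer cells of a type and less RNA per cell cannot be told apart.

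The libraries were alike in scale. Their RPKM sums lay between 388632 and 402100, and the mitochondrially encoded genes took 20.6% of the sum in ipsilateral brain and 24.1% in contralateral brain at 21 months, and 18.5% in ipsilateral brain and 23.3% in contralateral brain at 13 months. Markers of tissue next to the brain differed between libraries. Tph1, a melatonin pathway enzyme of the pineal gland, had 0.13 RPKM in ipsilateral and 0.44 RPKM in contralateral brain at 21 months, and 0.27 RPKM in ipsilateral and 10.4 RPKM in contralateral brain at 13 months. Cga, a pituitary hormone subunit, had 0.63 RPKM in ipsilateral and 4.88 RPKM in contralateral brain at 21 months, and 5.37 RPKM in ipsilateral and 1.48 RPKM in contralateral brain at 13 months. Of the pineal and photoreceptor list 5 of 15 matched genes passed the filter, and 3 of them, Tph1, Gngt1 and Pde6g, did so through the contralateral library at 13 months. Of the pituitary list 2 of 9 matched genes passed. The part of these tissues in the ciliary values was not tested.

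The transport genes were the most abundant of the set. Of the 41 genes, 12 had a mean of at least 10 RPKM, and 9 of those 12 were IFT genes. Ift20, a train subunit that also sits at the Golgi, led with 62.1 RPKM in ipsilateral and 72.7 RPKM in contralateral brain at 21 months, and 81.6 RPKM in ipsilateral and 76.4 RPKM in contralateral brain at 13 months. The only genes outside transport at that level were Cfap20, which lies at the inner junction of the doublet, and the dynein light chains Dnal1 and Dnal4. Cfap20 had 26.6 RPKM in ipsilateral and 37.2 RPKM in contralateral brain at 21 months, and 32.1 RPKM in ipsilateral and 33.5 RPKM in contralateral brain at 13 months.

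Genes whose products serve motile cilia more strictly stood lower. Drc1, a scaffold of the nexin-dynein regulatory complex, had 8.12 RPKM in ipsilateral and 11.8 RPKM in contralateral brain at 21 months, and 9.62 RPKM in ipsilateral and 9.94 RPKM in contralateral brain at 13 months. Tekt1, a filament protein inside the doublets, had 6.07 RPKM in ipsilateral and 6.27 RPKM in contralateral brain at 21 months, and 5.14 RPKM in ipsilateral and 5.39 RPKM in contralateral brain at 13 months. In both genes the 21-month contralateral library was the highest of the 4.

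The motor heavy chains had low RPKM values. All 10 Dnah rows, which code for the force-producing dynein chains, failed the filter, with values between 0.06 and 1.17 RPKM over the 4 libraries. Dnah9, an outer arm heavy chain, had the highest mean among the 25 rows that failed, with 0.92 RPKM in ipsilateral and 1.02 RPKM in contralateral brain at 21 months, and 0.85 RPKM in ipsilateral and 0.96 RPKM in contralateral brain at 13 months. Its mean of 0.938 RPKM lies just outside the filter, and that of Drc7, 1.02 RPKM, just inside. Of the 25, 5 reached 1 RPKM in at least 1 library. Mcidas, which starts the multiciliated programme in differentiating cells, was listed at 0 in both contralateral libraries and at 0.01 RPKM in both ipsilateral libraries. Spag16 and both Rsph4a rows were also listed at 0 in at least 1 library, and no ratio is given for these 4 rows.

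**Figure D1:**
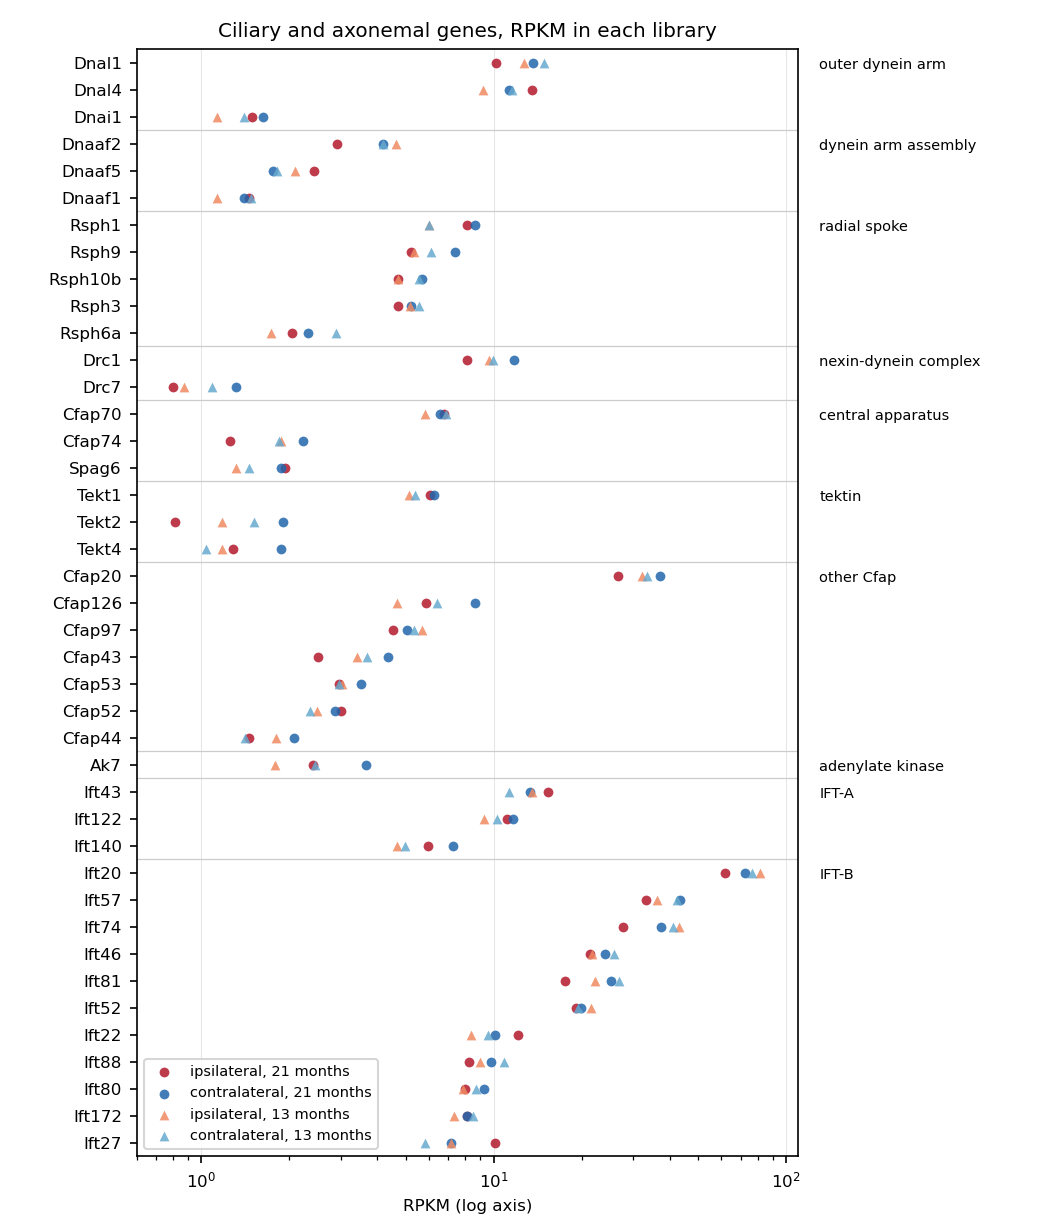
Expression in RPKM on a log scale for the genes that passed the filter, grouped by role, with 1 point per library (ipsilateral and contralateral brain at 21 and 13 months). Ift20 stands highest in all 4 libraries, at 62.1 to 81.6 RPKM, and the points of a gene lie close together beside the range between genes.

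Where a promoter was given, the set held the X-box more often than other genes did. The X-box is the palindromic motif bound by RFX transcription factors, known regulators of ciliary genes, and it was searched by its consensus on both strands with 0 to 3 bases between its arms. RefSeq promoter windows of the rat build GRCr8, running from 250 bases before to 50 bases after the annotated start, matched 53 of the 64 symbols. An X-box lay in 7 of the 53 (13.2%), against 1.64% of 27457 genes with a window and 1.4% of the 12000 genes of the expression table that matched one. All 7 were outside the transport group, 7 of 42 against 0 of 11 IFT genes. The half-site GTTGCC, searched on both strands, lay in 19 of the 53 (35.8%) against 13.1% of all genes. It overlaps the X-box in its letters, and 6 of the 7 genes with an X-box also held it. The forkhead core GTAAACA, the kind of site read by Foxj1, lay in 3 of the 53 (5.66%), namely Cfap20, Cfap43 and Tekt3. It lay in 4.13% of all genes and in 2.63% of the 12000 genes of the expression table. A match describes these letters and is neither a bound site nor a cause of any value below.

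The 7 X-boxes are shown as the matches to the consensus searched, and most members with a promoter window held none. Each is printed on the strand of its gene with the motif in capitals and 24 bases on either side. All 7 lie upstream of the start, between positions -99 and -1. Dnai1 and Dnai2 code for outer arm intermediate chains, Dnah2 for an inner arm heavy chain and Hydin for a large protein of the central apparatus. Tekt2 and Dnai2 hold the same motif letter for letter, and so do Cfap44 and Hydin. The windows are Tekt2 at chr5:143907724-143907784 (minus strand), Dnai2 at chr10:100258936-100258996 (plus), Dnai1 at chr5:61525956-61526016 (plus), Cfap44 at chr11:69789885-69789946 (minus), Hydin at chr19:55146428-55146489 (plus), Dnaaf2 at chr6:93406374-93406435 (minus) and Dnah2 at chr10:54766034-54766095 (minus).
Tekt2: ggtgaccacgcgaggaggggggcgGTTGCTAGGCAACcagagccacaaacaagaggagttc
Dnai2: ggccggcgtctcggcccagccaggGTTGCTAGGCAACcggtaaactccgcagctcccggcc
Dnai1: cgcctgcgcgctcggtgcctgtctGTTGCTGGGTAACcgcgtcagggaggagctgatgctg
Cfap44: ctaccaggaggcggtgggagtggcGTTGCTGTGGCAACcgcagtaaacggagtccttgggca
Hydin: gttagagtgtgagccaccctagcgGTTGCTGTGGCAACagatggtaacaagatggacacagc
Dnaaf2: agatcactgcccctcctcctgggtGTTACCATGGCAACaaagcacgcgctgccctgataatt
Dnah2: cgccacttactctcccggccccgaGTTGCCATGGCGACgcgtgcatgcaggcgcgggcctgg

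The first comparison asks how the injured side differed from the opposite side in the older rats. At 21 months most ciliary genes were lower in ipsilateral than in contralateral brain. The log2 ratio of ipsilateral over contralateral, taken on RPKM + 1, was below 0 in 32 of 41 genes (78.0%), against 38.9% of the 12160 genes kept. Its median was -0.20 over the 41 genes and 0.09 over all genes kept, and 36 of the 41 lay below the median of all genes. The differences were small: the range ran from -0.68 to 0.45. A ratio of -0.5 or lower, a 1.41-fold difference, was reached by 4 of the 41 genes against 2.94% of all genes, and a ratio of 0.5 or higher by 0 of 41 against 16.3%. At the larger step of 1, a 2-fold difference, none of the 41 was higher or lower, against 5.61% of all genes higher and 0.288% lower.

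The 4 genes past that step at 21 months were Tekt2, Cfap43, Cfap74 and Ift81. Tekt2 (ENSRNOG00000011033, chromosome 5), a tektin with the X-box shown above, had 0.81 RPKM in ipsilateral and 1.90 RPKM in contralateral brain at 21 months, a log2 ratio of -0.68. At 13 months Tekt2 had 1.18 RPKM in ipsilateral and 1.51 RPKM in contralateral brain, a ratio of -0.20. Both ipsilateral libraries lay below both contralateral ones, at levels close to the filter.

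Cfap43 (ENSRNOG00000036585, chromosome 1), a protein of the doublet surface known from sperm flagella, had 2.51 RPKM in ipsilateral and 4.36 RPKM in contralateral brain at 21 months (-0.61). At 13 months it had 3.41 RPKM in ipsilateral and 3.69 RPKM in contralateral brain (-0.09). Cfap74, a further cilia and flagella associated protein, had 1.25 RPKM in ipsilateral and 2.23 RPKM in contralateral brain at 21 months (-0.52), and 1.87 RPKM in ipsilateral and 1.84 RPKM in contralateral brain at 13 months (0.02). For this pair the side difference stood in the 21-month libraries and was near 0 at 13 months, where the sign for Cfap74 turned to -0.05 with scaling without mitochondrial genes.

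Ift81 (ENSRNOG00000001294, chromosome 12) binds tubulin as cargo together with Ift74. It had 17.6 RPKM in ipsilateral and 25.3 RPKM in contralateral brain at 21 months (-0.50), and 22.3 RPKM in ipsilateral and 26.8 RPKM in contralateral brain at 13 months (-0.26). Its partner Ift74 had 27.7 RPKM in ipsilateral and 37.4 RPKM in contralateral brain at 21 months (-0.42), and 43.0 RPKM in ipsilateral and 41.0 RPKM in contralateral brain at 13 months (0.07). The partners were alike at 21 months, and at 13 months Ift74 stood near 0, turning to -0.03 with scaling without mitochondrial genes.

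The same question at 13 months gave smaller side ratios. The log2 ratio was below 0 in 27 of 41 genes (65.9%), against 48.9% of all genes kept, with a median of -0.09 over the 41 genes and 0.01 over all genes. It ranged from -0.51 to 0.25. At a ratio of -0.5 or lower stood 1 of the 41 genes against 4.09% of all genes, and at 0.5 or higher 0 of 41 against 15.2%. None of the 41 was past a ratio of 1, against 7.19% of all genes higher and 0.0658% lower. The 1 gene was Rsph6a, a radial spoke protein, with 2.04 RPKM in ipsilateral and 2.31 RPKM in contralateral brain at 21 months (-0.12), and 1.73 RPKM in ipsilateral and 2.88 RPKM in contralateral brain at 13 months (-0.51).

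The side ratios of the 2 ages share no library. Lower at both ages were 22 of the 41 genes (53.7%), against 26.5% of all genes kept, and higher at both ages were 4 (9.76%), against 38.4%. Cfap126, known as Flattop and needed in mouse for the placing of basal bodies, had 5.88 RPKM in ipsilateral and 8.64 RPKM in contralateral brain at 21 months (-0.49), and 4.66 RPKM in ipsilateral and 6.38 RPKM in contralateral brain at 13 months (-0.38). Ak7, a ciliary adenylate kinase whose loss in mice gives hydrocephalus, had 2.41 RPKM in ipsilateral and 3.66 RPKM in contralateral brain at 21 months (-0.45), and 1.78 RPKM in ipsilateral and 2.44 RPKM in contralateral brain at 13 months (-0.31). These 2 genes had the lowest side ratios shared by both ages. In each of them both ipsilateral libraries lay below both contralateral ones, for Ak7 narrowly, since its ipsilateral value at 21 months was 2.41 RPKM and its contralateral value at 13 months 2.44 RPKM.

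Other genes lower at both ages came from the dynein arms, the transport trains and the spokes. Dnal1, an outer arm light chain, had 10.2 RPKM in ipsilateral and 13.7 RPKM in contralateral brain at 21 months (-0.39), and 12.7 RPKM in ipsilateral and 14.9 RPKM in contralateral brain at 13 months (-0.22). Ift57, a peripheral subunit of the outbound train, had 33.2 RPKM in ipsilateral and 43.3 RPKM in contralateral brain at 21 months (-0.37), and 36.3 RPKM in ipsilateral and 42.5 RPKM in contralateral brain at 13 months (-0.22). In both genes the 2 ipsilateral libraries lay below the 2 contralateral ones. Ift88, a core subunit whose mouse mutants lack normal cilia, had 8.24 RPKM in ipsilateral and 9.81 RPKM in contralateral brain at 21 months (-0.23), and 9.0 RPKM in ipsilateral and 10.8 RPKM in contralateral brain at 13 months (-0.24). Rsph10b, a radial spoke gene, had 4.72 RPKM in both ipsilateral libraries, against 5.67 RPKM in contralateral brain at 21 months and 5.55 RPKM at 13 months. Their ratios were of similar size at the 2 ages.

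The 4 genes higher on the ipsilateral side at both ages were Ift27, Ift43, Dnaaf5 and Cfap52. Ift27 (ENSRNOG00000006440, chromosome 7), a small GTPase-like subunit that also takes part in the exit of membrane proteins from cilia, had 10.1 RPKM in ipsilateral and 7.17 RPKM in contralateral brain at 21 months (0.45). At 13 months it had 7.13 RPKM in ipsilateral and 5.84 RPKM in contralateral brain (0.25). Ift27 was thus opposite in direction to most of the set, although against the contralateral library of 21 months its 13-month ratio was -0.01. Ift43, of the return train, had 15.3 RPKM in ipsilateral and 13.3 RPKM in contralateral brain at 21 months (0.19), and 13.6 RPKM in ipsilateral and 11.3 RPKM in contralateral brain at 13 months (0.25). Dnaaf5, which helps to assemble dynein arms in the cytoplasm, had 2.42 RPKM in ipsilateral and 1.76 RPKM in contralateral brain at 21 months (0.31), and 2.09 RPKM in ipsilateral and 1.81 RPKM in contralateral brain at 13 months (0.14). Cfap52, a protein inside the doublets, had ratios of 0.05 at 21 months and 0.06 at 13 months, which turned to -0.03 at 21 months and -0.01 at 13 months with scaling without mitochondrial genes. Either rescaling left 3 genes higher at both ages, and the count lower at both ages became 27 with median-ratio scaling and 32 without mitochondrial genes. The matching shares over all genes were not counted. The median of all genes also fell, from 0.09 to -0.01 in either rescaling at 21 months. At 13 months it fell from 0.01 to -0.01 with median-ratio scaling and to -0.08 without mitochondrial genes.

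**Figure D2:**
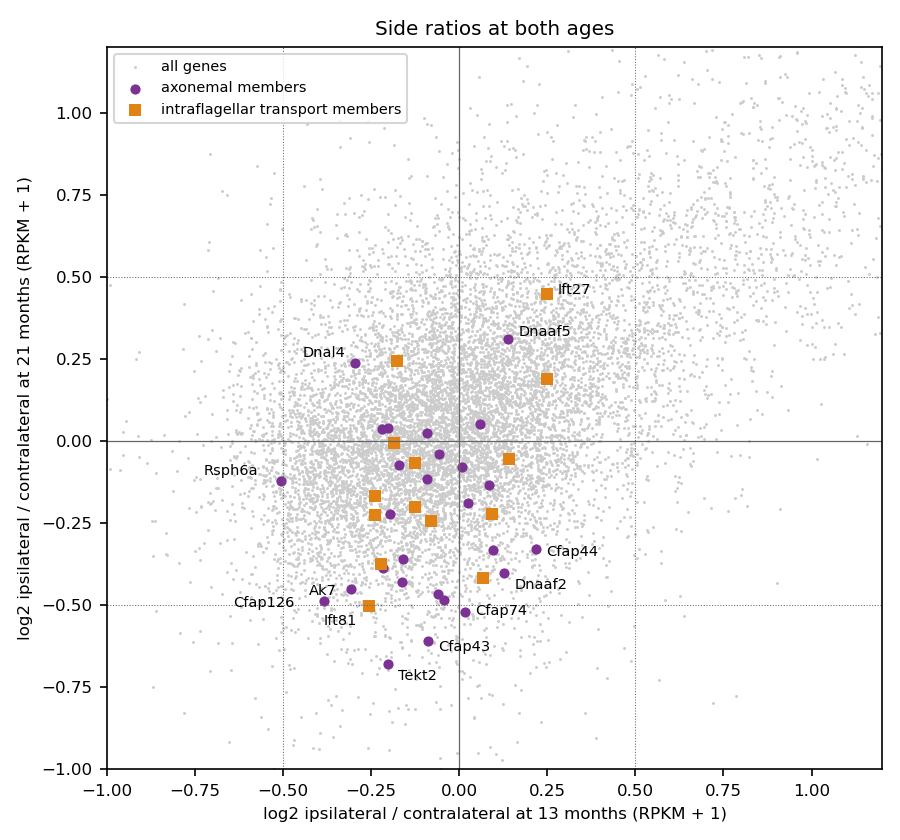
Log2 ratio of ipsilateral over contralateral brain, on RPKM + 1, for each gene that passed the filter, at 21 months and at 13 months, with 1 library per side and no error bar possible. At 21 months 32 of 41 genes lie below 0 and at 13 months 27 of 41, and Ift27 is higher at both ages.

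With the 2 ages taken as the repeats of each side, limma on log2(RPKM + 1) with a term for age called 0 of the 41 genes higher and 0 lower at an adjusted p under 0.05. It called 13.3% of the 12160 genes higher and 0.814% lower on the ipsilateral side. Without adjustment, limma put 4 of the 41 genes lower and 0 higher at a p under 0.05, against 4.47% of all genes lower and 18.9% higher. The lowest adjusted p values in limma were those of Cfap126, at -0.43 ± 0.17 (log2, SE) with an adjusted p of 0.105, and of Tekt2, at -0.44 ± 0.18 with an adjusted p of 0.117. The fit has 1 residual degree of freedom and reads any difference between the ages in the side effect as noise. Its SE rests mainly on a variance shared over all genes. The SE was therefore nearly alike across the 41 genes and is not a measured spread of each gene.

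By role, most groups of the axoneme and the outbound trains were lower on the injured side in most of their genes, and the central apparatus and assembly factors were mixed. Over all genes kept, 38.9% were below 0 at 21 months and 48.9% at 13 months. The groups are small, and several counts at 13 months lie near that share. Of the 11 IFT-B genes, which build the outbound train, 9 were below 0 at 21 months and 7 at 13 months, with medians of -0.20 at 21 months and -0.18 at 13 months. Of the 3 IFT-A genes, which serve the return, 2 were below 0 at each age. All 5 radial spoke genes kept were below 0 at 21 months and 4 of 5 at 13 months, and both nexin-dynein genes, Drc1 and Drc7, were below 0 at each age. The 3 tektins kept were below 0 at 21 months and 2 of 3 at 13 months, and of the 3 outer arm genes kept 2 were below 0 at 21 months and 3 at 13 months. The 3 central apparatus genes and the 3 assembly factors kept were mixed, with 1 of 3 below 0 at 21 months in either group, which became 3 of 3 for the central apparatus and 2 of 3 for the assembly factors in either rescaling. The 7 cilia and flagella associated proteins kept that have no other role here had a median of -0.33 at 21 months, with 6 of 7 below 0, and 0.03 at 13 months, with 3 of 7 below 0. Without mitochondrial genes in the scaling that last median was -0.05, with 6 of 7 below 0, against a median of -0.08 over all genes kept.

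The remaining transport genes show how small the differences were beside the levels. Ift46, a core IFT-B subunit, had 21.4 RPKM in ipsilateral and 24.1 RPKM in contralateral brain at 21 months (-0.17), and 21.8 RPKM in ipsilateral and 25.9 RPKM in contralateral brain at 13 months (-0.24). Ift52, which binds Ift46 and Ift88 in the core, had 19.1 RPKM in ipsilateral and 19.9 RPKM in contralateral brain at 21 months (-0.06), and 21.6 RPKM in ipsilateral and 19.5 RPKM in contralateral brain at 13 months (0.14). Thus 2 subunits of the same core had different signs at 13 months, both small. Ift22, a second GTPase-like subunit, had 12.1 RPKM in ipsilateral and 10.1 RPKM in contralateral brain at 21 months (0.24), and 8.34 RPKM in ipsilateral and 9.56 RPKM in contralateral brain at 13 months (-0.18). Among the spokes, Rsph9 of the spoke head had 5.20 RPKM in ipsilateral and 7.35 RPKM in contralateral brain at 21 months (-0.43), and 5.33 RPKM in ipsilateral and 6.09 RPKM in contralateral brain at 13 months (-0.16). Rsph1, of the same head, had ratios of -0.08 at 21 months and 0.01 at 13 months.

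Summed over all 66 rows, the set made up 402 RPKM in ipsilateral and 474 RPKM in contralateral brain at 21 months, a fold of 0.849. At 13 months it made up 437 RPKM in ipsilateral and 459 RPKM in contralateral brain, a fold of 0.953. The 14 IFT genes alone summed to 260 RPKM in ipsilateral and 299 RPKM in contralateral brain at 21 months, and to 294 RPKM in ipsilateral and 302 RPKM in contralateral brain at 13 months. The 52 other rows, called axonemal genes from here on, summed to 142 RPKM in ipsilateral and 174 RPKM in contralateral brain at 21 months, and to 144 RPKM in ipsilateral and 157 RPKM in contralateral brain at 13 months. The sums rest mainly on the few abundant genes named above.

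The next comparison sets 21 months against 13 months within each side, and shares its libraries with the side ratios. In contralateral brain the ciliary genes tended to be higher at 21 months: 27 of 41 had a log2 ratio above 0 and 14 (34.1%) below, against 58.4% of all genes below. The median was 0.13 over the 41 genes and -0.03 over all genes. All 41 stayed within a ratio of 0.5, where 0.905% of all genes were higher and 0.666% lower. The axonemal genes stood higher than the IFT genes, with 19 of 27 above 0 and a median of 0.19, and the IFT genes with 8 of 14 above 0 and a median of 0.03.

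The highest age ratios in contralateral brain belonged to axonemal and return-train genes. Tekt4, a tektin, had 1.28 RPKM at 21 months and 1.18 RPKM at 13 months in ipsilateral brain (0.06), and 1.87 RPKM at 21 months and 1.04 RPKM at 13 months in contralateral brain (0.49). Ift140, an IFT-A subunit, had 5.98 RPKM at 21 months and 4.67 RPKM at 13 months in ipsilateral brain (0.30), and 7.27 RPKM at 21 months and 4.99 RPKM at 13 months in contralateral brain (0.47). Rsph1, a spoke head protein, had 8.10 RPKM at 21 months and 6.03 RPKM at 13 months in ipsilateral brain (0.37), and 8.62 RPKM at 21 months and 6.0 RPKM at 13 months in contralateral brain (0.46). For Ift140 and Rsph1 both 21-month libraries lay above both 13-month libraries. Ak7 and Cfap126, given above, were likewise higher at 21 months on both sides, with contralateral age ratios of 0.44 for Ak7 and 0.39 for Cfap126. The lowest contralateral age ratio was -0.23, of Rsph6a.

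In ipsilateral brain the ages did not separate the set. Of the 41 genes, 20 were above 0, 20 below and 1 at 0, with a median of 0.00 against 0.03 over all genes. Past 0.5 stood 1 gene higher at 21 months, Dnal4, against 6.53% of all genes, and 2 genes lower, Ift74 and Dnaaf2, against 5.94%. Dnal4, a light chain of axonemal dynein, had 13.5 RPKM at 21 months and 9.23 RPKM at 13 months in ipsilateral brain (0.50), and 11.3 RPKM at 21 months and 11.6 RPKM at 13 months in contralateral brain (-0.03). Ift74, given above, had an age ratio of -0.62 in ipsilateral and -0.13 in contralateral brain. Dnaaf2, an assembly factor, had 2.92 RPKM at 21 months and 4.65 RPKM at 13 months in ipsilateral brain (-0.53), and 4.18 RPKM at 21 months and 4.17 RPKM at 13 months in contralateral brain (0.00). For these 3 genes the age difference stood on the injured side.

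**Figure D3:**
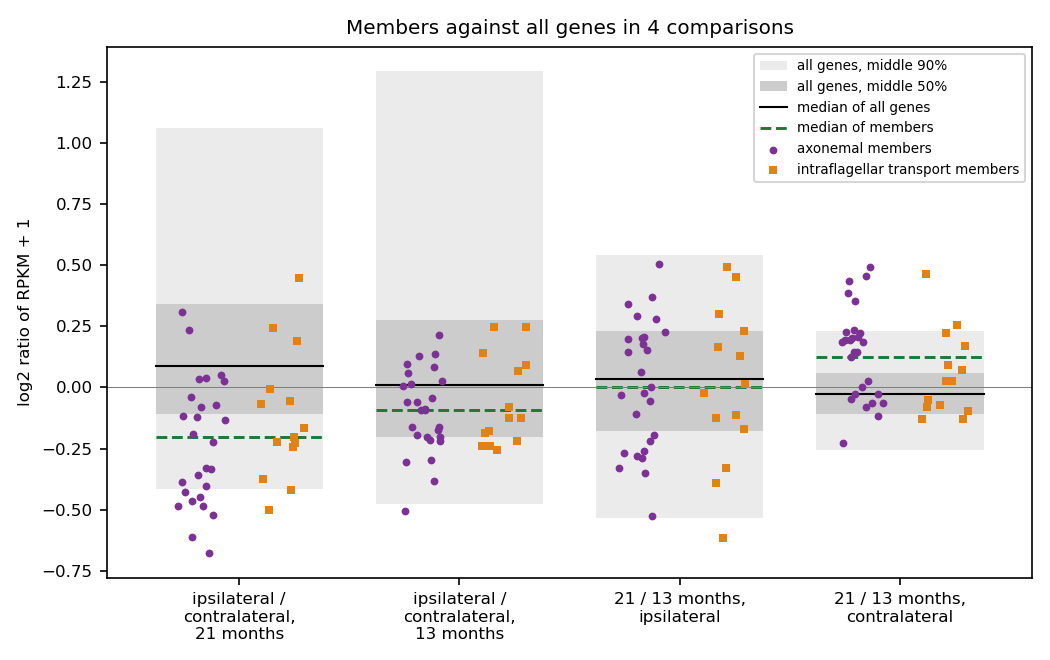
Log2 ratios on RPKM + 1 of the genes that passed the filter in the side comparison at each age and the age comparison on each side, beside all genes kept, with no error since each group is 1 library. The ciliary median lies below that of all genes at 21 months between sides (-0.20 against 0.09) and above it between ages in contralateral brain (0.13 against -0.03).

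Across the 4 libraries, the contralateral library at 21 months was most often the highest. It held the highest value for 20 of the 41 genes (48.8%), against 15.04% of all genes kept, and for 16 of the 27 axonemal genes kept. The ipsilateral library at 21 months held the lowest value for 18 of the 41 (43.9%), against 20.8% of all genes. The wider side difference at 21 months therefore shares that contralateral library with the age difference, and the measurement cannot tell which of the 2 libraries set it apart. Set against the contralateral library of 13 months in place of its own, an alternative added after the data were seen, the ipsilateral library at 21 months had a median ratio of -0.10 over the 41 genes. The ipsilateral library at 13 months set against the contralateral library of 21 months had a median of -0.20.

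The side ratio at 21 months minus that at 13 months had a median of -0.10 over the 41 genes and 0.05 over all genes, and no test of it is possible with 1 library per group. At -0.5 or lower stood 4 of the 41 genes, Cfap44, Cfap74, Dnaaf2 and Cfap43, against 6.92% of all genes. At 0.5 or higher stood Dnal4 alone, against 9.79%. Cfap44, the partner of Cfap43 in sperm flagella and a gene with the X-box shown above, had 1.45 RPKM in ipsilateral and 2.08 RPKM in contralateral brain at 21 months (-0.33), and 1.80 RPKM in ipsilateral and 1.41 RPKM in contralateral brain at 13 months (0.22). Against the contralateral library of the other age both signs turned, to 0.02 at 21 months and -0.14 at 13 months.

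Most ciliary genes outside the naming rule were lower on the injured side too. Of 58 further genes of motile cilia, 51 matched a row and 38 passed the filter. Their median side ratio was -0.34 at 21 months and -0.10 at 13 months, and 24 of the 38 were lower at both ages, against 26.5% of all genes kept. Against 0.814% of all genes falling and 13.3% rising in limma, 1 of the 38 fell and 0 rose. That gene was Ccdc113, with 5.35 RPKM in ipsilateral and 10.8 RPKM in contralateral brain at 21 months, and 6.88 RPKM in ipsilateral and 9.36 RPKM in contralateral brain at 13 months (limma log2 change -0.64, adjusted p = 0.0147). Mns1, a protein inside the doublets, had 5.63 RPKM in ipsilateral and 12.8 RPKM in contralateral brain at 21 months, and 11.96 RPKM in ipsilateral and 12.8 RPKM in contralateral brain at 13 months. Its ipsilateral library at 21 months stood apart from the other 3.

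Further transport genes and genes of primary cilia lay nearer to 0 than the set at 21 months, but the primary cilium genes did not at 13 months. A list of 27 genes held transport motors, IFT subunits with other names and the BBSome, which carries membrane cargo. Its median side ratio was -0.06 at each age. Limma called 1 of the 27 lower and 0 higher, against 0.814% of all genes lower and 13.3% higher. The gene called was Kif3a, a kinesin-2 motor subunit of the outbound train, with 27.98 RPKM in ipsilateral and 48.8 RPKM in contralateral brain at 21 months, and 40.0 RPKM in ipsilateral and 49.1 RPKM in contralateral brain at 13 months (limma log2 change -0.53, adjusted p = 0.0477). Over 21 primary cilium genes the median was -0.07 at 21 months and -0.11 at 13 months, with 0 rising and 0 falling in limma. The 8 regulators of multiciliation kept had a median side ratio of 0.22 at 21 months and -0.08 at 13 months, and 2 of the 8 were lower at both ages. E2f4 (0.28 at 21 months, 0.24 at 13 months) and E2f5 (0.46 at each age) were higher at both. Among the 8, limma called Plk4 alone. Plk4, the kinase that starts centriole duplication in dividing cells too, rose, with 1.83 RPKM in ipsilateral and 0.59 RPKM in contralateral brain at 21 months, and 2.51 RPKM in ipsilateral and 0.71 RPKM in contralateral brain at 13 months (limma log2 change 0.93, adjusted p = 0.000316).

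Markers of the cells that carry cilia moved with the set in part. The 13 ependymal markers kept, 5 of which are also in the set or in the list of other motile cilia genes, had a median side ratio of -0.27 at 21 months and -0.14 at 13 months, and an age ratio of 0.19 in contralateral brain. The summed level of these 13 was 107 RPKM in ipsilateral and 104 RPKM in contralateral brain at 21 months, and 107 RPKM in ipsilateral and 94.4 RPKM in contralateral brain at 13 months. The sum and the median thus point in opposite directions, and limma called Rarres2, a secreted chemoattractant precursor also made outside the ependyma, higher and Ccdc113 lower. The 8 markers on neither ciliary list had medians of -0.20 at 21 months and -0.14 at 13 months, with 5 of 8 below 0 at 21 months and 6 of 8 at 13 months. The lowest of the 8 at 21 months were Fam183b (-0.86) and Ccdc153 (-0.70). Absence from both lists rests on symbols and does not show that a marker is not ciliary. Cd24, a surface protein of many cell types, went the other way, with ratios of 0.36 at 21 months and 0.35 at 13 months. Rarres2 had 29.1 RPKM in ipsilateral and 9.02 RPKM in contralateral brain at 21 months, and 29.2 RPKM in ipsilateral and 10.3 RPKM in contralateral brain at 13 months. The 11 choroid plexus markers kept had a median of -0.60 at 21 months and -0.43 at 13 months, and an age ratio of 0.53 in contralateral brain. Limma called 5 of the 11 lower and 0 higher, against 0.814% of all genes lower and 13.3% higher. The sum of these 11 was 1079 RPKM in ipsilateral and 1817 RPKM in contralateral brain at 21 months, and 681 RPKM in ipsilateral and 1234 RPKM in contralateral brain at 13 months. Most of that sum is Ttr, the thyroid hormone carrier that the plexus secretes. The 21-month contralateral library was the highest in this sum, as it was for 20 of the 41 ciliary genes. The part of either cell type in the ciliary values was not tested.

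Markers of immune cells differed far more between the sides than the ciliary genes did. Of 14 microglia and macrophage markers limma called 13 higher and 0 lower, against 13.3% of all genes higher and 0.814% lower. These markers had median side ratios of 2.02 at 21 months and 2.37 at 13 months. Their sum was 1259 RPKM in ipsilateral and 176 RPKM in contralateral brain at 21 months, and 1982 RPKM in ipsilateral and 230 RPKM in contralateral brain at 13 months. The 14 neuronal markers kept had medians of -0.21 at 21 months and -0.42 at 13 months, with 2 lower in limma and 0 higher. Astrocyte, oligodendrocyte and vascular markers had medians of opposite sign at the 2 ages, and limma called 1 astrocyte and 1 vascular marker higher. The 14 astrocyte markers had medians of 0.12 at 21 months and -0.22 at 13 months, the 11 oligodendrocyte markers 0.28 at 21 months and -0.12 at 13 months, and the 11 vascular markers -0.14 at 21 months and 0.10 at 13 months. Sperm share axonemal proteins with brain cilia, and of 10 sperm and testis genes matched, 0 passed the filter, with a summed level of at most 1.35 RPKM in any library. How far the larger cell type differences move the share of RNA left for ciliary genes was not tested.

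**Figure D4:**
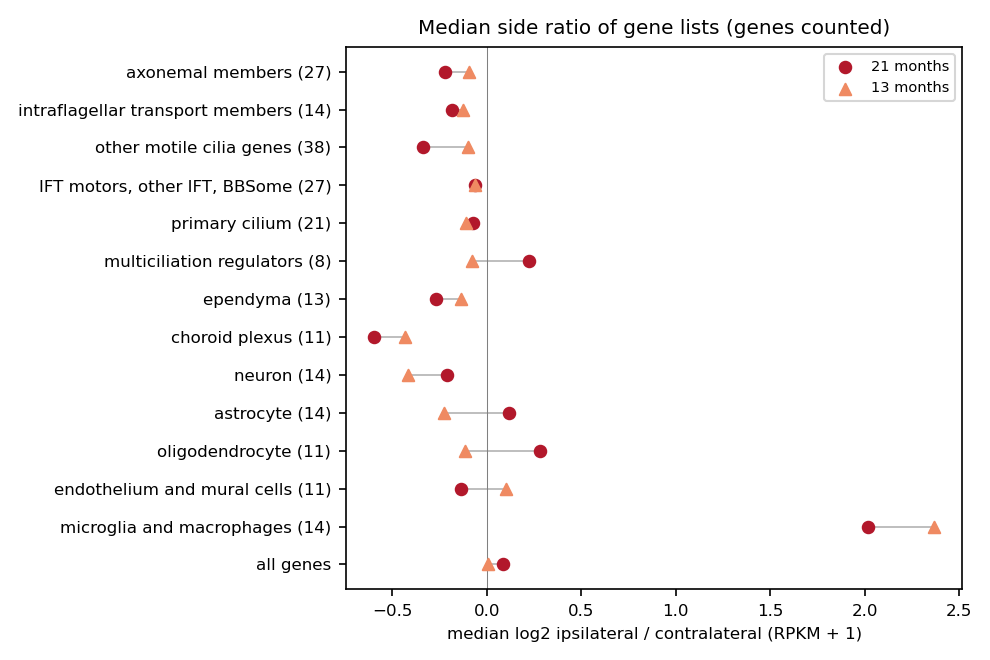
Median log2 side ratio on RPKM + 1 at 21 months and at 13 months, counting genes that passed the filter. Shown are the axonemal and the IFT genes of the set, and the lists of other ciliary genes and cell type markers. Microglia and macrophage markers lie at 2.02 at 21 months and 2.37 at 13 months. Choroid plexus markers lie at -0.60 at 21 months and -0.43 at 13 months. The axonemal genes lie at -0.22 at 21 months and -0.09 at 13 months, and the IFT genes at -0.18 and -0.13.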

How the data were processed

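The deposited table holds 1 RPKM value per gene and library, computed by the authors and rounded to 0.01. Per the submitters' processing notes cutadapt, TopHat2 and edgeR were used and the genome build is GRCh38, although the organism and the gene IDs are rat, so the build is not settled. The read counting, the lengths and any filter were not given in the sources used here. Per the labels' protocols the libraries are directional and made from polyadenylated RNA. Columns were matched to samples through the title codes, and 0 sample columns were left unmatched.

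Ratios are log2 ratios of RPKM plus a pseudocount of 1, over genes that average 1 RPKM or more, which understates the change of low genes. Calls are ratios past 0.5 (1.41-fold) or 1 (2-fold). The secondary test was limma 3.58.1 in R 4.3.3, side with an age term over all 12160 genes, two-sided, with Benjamini-Hochberg adjustment, tested on simulated data. Without counts, depth and counting error are unknown. Members, gene lists and tests were chosen with earlier results of these data known. Genes described singly are the most abundant, those with the lowest and highest side, age and difference values, and, of each other list, its extremes and most abundant genes or genes called by limma, which were chosen after their values were seen. Drc1, Tekt1 and Rsph9 met none of these rules and were picked as examples. Promoters are RefSeq windows of GRCr8, matched by symbol. Alternatives were a pseudocount of 0.1, no filter, a mean of at least 5 RPKM, 2 rescalings, 2 other limma models and, added after the data were seen, the contralateral library of the other age.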

Additional observations from a re-analysis of the deposited data

Results flagged for a closer look

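In 4 genes the side ratio had opposite signs at the 2 ages and differed by 0.5 or more on the log2 scale, which was not tested, since each group is 1 library. Dnal4, a dynein light chain, was higher in ipsilateral brain at 21 months (0.24) and lower at 13 months (-0.30), a difference of 0.53. Cfap44 was lower at 21 months (-0.33) and higher at 13 months (0.22), a difference of -0.55, and both signs turned against the contralateral library of the other age. Cfap74 was lower at 21 months (-0.52) and near 0 at 13 months (0.02, turning to -0.05 with scaling without mitochondrial genes), a difference of -0.54. Dnaaf2 was lower at 21 months (-0.40) and higher at 13 months (0.13), a difference of -0.53.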

How the results depend on the processing

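No paired analysis was possible because the labels give no replicate numbers that tie libraries or animals together, and with 1 library per group no replicate could be left out. The age term in limma does compare the sides within each age, and the fit without it is given below. The median side ratio at 21 months (-0.20) was -0.30 with median-ratio scaling, -0.30 with scaling without mitochondrial genes and -0.086 with no filter. The median over all genes kept was 0.09 and became -0.01 in either scaling. The 4 genes at -0.5 or lower at 21 months became 10 with either scaling (5.37% of all genes in each), 10 with a pseudocount of 0.1 (4.4%) and 1 with a mean of at least 5 RPKM (3.36%). At 13 months the 1 such gene became 0 with a mean of at least 5 RPKM (4.8% of all genes). In the age comparison of ipsilateral brain, the 1 gene at 0.5 or higher became 0 with median-ratio scaling (4.47% of all genes), 2 without mitochondrial genes (6.91%) and 4 with a pseudocount of 0.1 (9.56%), and the 2 at -0.5 or lower became 1 with a mean of at least 5 RPKM (6.17%). In contralateral brain, the 0 genes at 0.5 or higher became 1 with either scaling (1.01% of all genes with median-ratio scaling, 1.05% without mitochondrial genes) and 5 with a pseudocount of 0.1 (1.97%). With the contralateral library of the other age, chosen after the data were seen, the count at 0.5 or higher at 21 months became 1 in place of 0 (14.7% of all genes), the median at 13 months -0.20 in place of -0.09 and the count at -0.5 or lower at 13 months 3 in place of 1 (3.54% of all genes). In limma 1 gene fell, in place of 0, with a pseudocount of 0.1 (Tekt2, -0.73, adjusted p = 0.0347) and with median-ratio scaling (Cfap126, -0.50, adjusted p = 0.0432). Over all genes limma called 271 lower with median-ratio scaling, 27 with no age term and 40 with a mean of at least 5 RPKM, in place of 99. It called 841 higher with a mean of at least 5 RPKM, in place of 1618, and with no filter it called 0 either way, where before adjustment 2641 were higher and 719 lower at p under 0.05. The cause of these shifts was not tested. For single genes, 60 side ratios of members chosen by level or extreme values were followed, without Drc1, Tekt1 and Rsph9. Of these, 16 moved by more than 0.1 with median-ratio scaling, 17 without mitochondrial genes and 13 with a pseudocount of 0.1. With the contralateral library of the other age 38 did. The sign changed in 5 with median-ratio scaling, 8 without mitochondrial genes and 12 with the contralateral library of the other age, among them Ift140 at 21 months (-0.24 became 0.22), Tekt4 at 21 months (-0.33 became 0.16) and Ift27 at 13 months (0.25 became -0.01). Only 5 of the 60 were past 0.5, and 0 of those changed sign. Pooling and the lack of read counts limit all values: neither spread between animals nor counting error is known, least of all for genes near 1 RPKM.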
